A study of Mus musculus with 8 samples.

Results

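The genes described here are 10 genes of glucose uptake and glycolysis: the glucose transporters Slc2a1 and Slc2a3, the hexokinase Hk1, the phosphofructokinases Pfkm and Pfkp, the aldolases Aldoa and Aldoc, the phosphoglycerate kinase Pgk1 and the lactate dehydrogenases Ldha and Ldhb. Their probes were taken by the gene symbol in the array's annotation, which gave 13 of the 25697 probes on the array. They cover 9 of these genes, among 16593 genes named on the array; no probe listed here carries the symbol Ldhb, which was not analysed. Expression was measured on Illumina bead arrays in hypothalamus from males, 13 weeks old and on a C57BL/6 background. The 4 Bgn_KO mice carry a disruption of Bgn, the X-linked gene of the matrix proteoglycan biglycan, and the 4 WT mice are wild type. No other allele or treatment is named in the labels, which give the hypothalamus as the tissue and do not give the construct that disrupts Bgn. Each array stands for 1 labelled sample of its group, so the p-values measure the spread between these samples.

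Neurons and glia draw on glucose that is carried across the blood-brain barrier by GLUT1, the product of Slc2a1, which is abundant in brain endothelium and also present in glia. Neurons take glucose up through GLUT3, the product of Slc2a3. Inside the cell hexokinase traps glucose as its phosphate, phosphofructokinase commits it to glycolysis, aldolase splits the sugar, phosphoglycerate kinase makes ATP, and lactate dehydrogenase interconverts pyruvate and lactate. Some of these enzymes come in forms typical of a cell type, such as aldolase C in astrocytes and aldolase A, beta-enolase and the muscle phosphoglycerate mutase in skeletal muscle.

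Of 10 hypothalamic marker genes 9 were above background on all 8 arrays. The number of probes above background, those with a detection p under 0.05, was 13820 to 14502 per array. On the array labelled WT replicate 1 Bgn itself was at 8.86 on the normalized log2 scale, inside the range of the Bgn_KO arrays (8.79 to 9.01), while the other WT arrays lay between 9.53 and 10.44. Bgn was detected in both groups, and the position of its probe relative to the disruption is unknown here. WT replicate 4 carried skeletal muscle transcripts, and Bgn_KO replicate 4 had the highest mean of the cortical neuron markers (9.94, against 8.41 to 8.89 on the other arrays). Results that rest on these arrays are given with and without them where both were calculated.

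No probe of the transporters or glycolytic enzymes passed the test between the genotypes. Of the 13 probes, 12 were above background on all 8 arrays and were tested in a fit over 14190 probes. An adjusted p under 0.05 was reached by 0 of the 12 (limma), beside 0.507% of all tested probes (0.226% higher and 0.282% lower in Bgn_KO). An unadjusted p under 0.05 was reached by 1 of the 12, that of Pgk1, beside 10.2% of all tested probes (5.21% higher and 4.94% lower). The arrays of the groups did not overlap for 2 of the 12, those of Pgk1 and Aldoc, beside 6.15% of all tested probes, 2.95% being lower in Bgn_KO as Aldoc was. In Bgn_KO 7 of the 12 were higher and 5 lower, where 52.8% of all tested probes were higher and 47.2% lower. The median log2 difference, Bgn_KO minus WT, was 0.05 for the 12 probes and 0.01 for all tested probes. Scaling arrays to their medians in place of quantile normalization moved the median of all tested probes from 0.01 to -0.05 and that of the 12 to -0.02. The median of the 12 thus lay slightly above that of all probes under both scalings. With each probe centred on its group means, the median of the 12 varied between arrays with an SD of 0.05. Neither gap exceeded this spread, and signs of differences this small changed with the scaling. The differences lay between -0.18 and 0.33 with standard errors of 0.08 to 0.14, and 11 of the 12 were smaller than 0.2 in size. The 95% confidence intervals of the 12 ran from 0.773-fold to 1.45-fold of the WT level.

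**Figure D1:**
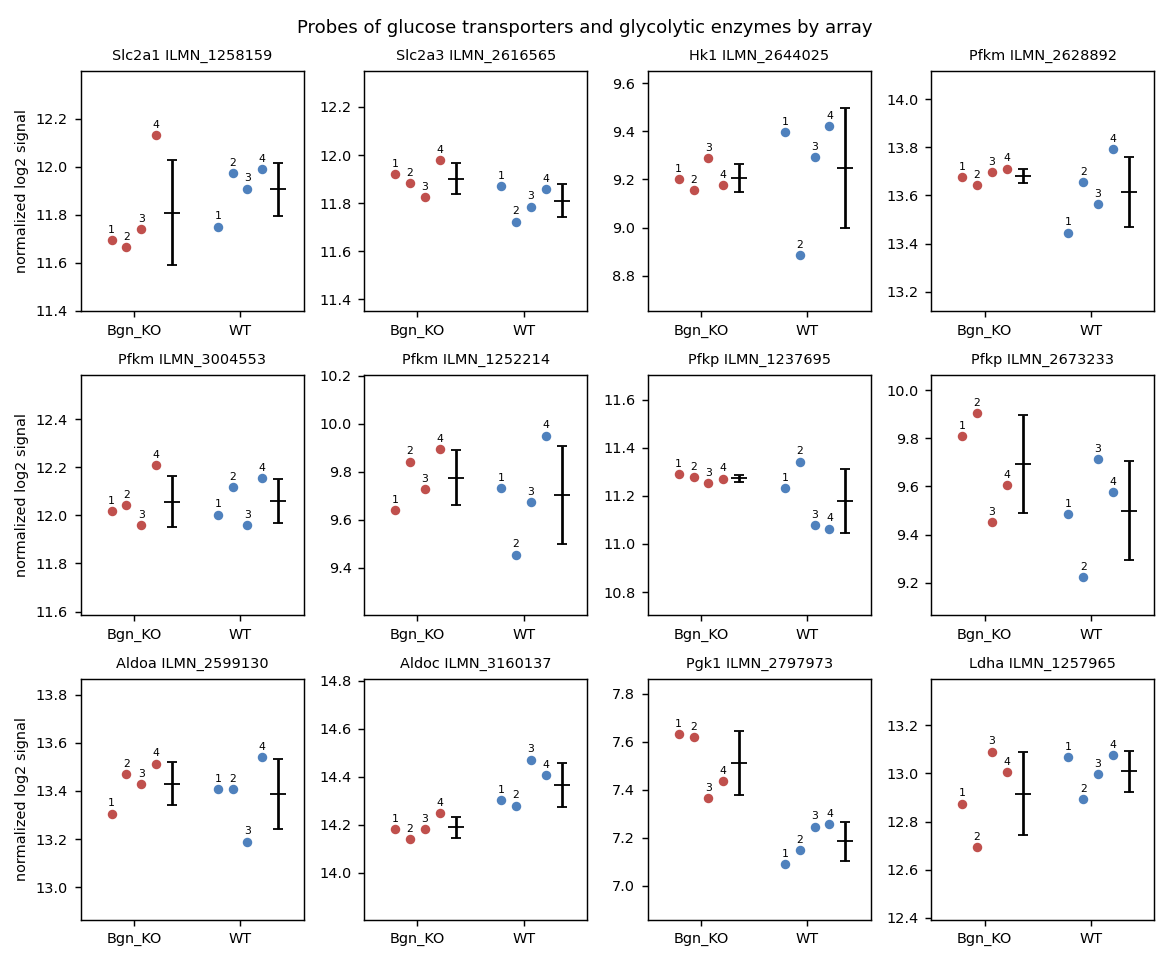
Normalized log2 signal (y axis) of the 12 tested probes on each array, with the Bgn_KO arrays in red and the WT arrays in blue, numbered by replicate, and the mean with its SD (n = 4) as a black bar. The groups are apart for Pgk1 and Aldoc, and they overlap for the other panels.

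Pgk1, whose enzyme makes the first ATP that glycolysis yields, showed the largest difference among these genes in the analysis reported. It lies on chromosome X, as do Bgn and, among the other genes given below, Pdha1 and Pdk3 (differences of -0.05 and -0.06). Whether this position plays a part was not tested. Its probe gave 7.63, 7.62, 7.37 and 7.44 on Bgn_KO replicates 1 to 4, with a mean of 7.51 ± 0.13 (SD, n = 4). WT replicates 1 to 4 gave 7.09, 7.15, 7.25 and 7.26, with a mean of 7.19 ± 0.08 (SD, n = 4). Every Bgn_KO array thus lay above every WT array. The log2 difference was 0.33 (SE 0.09), which is 1.25-fold with a 95% confidence interval from 1.08 to 1.45. It did not pass over all tested probes (limma adjusted p = 0.256), and the exact permutation test, which is two-sided here and throughout, gave p = 0.0286, the smallest that 4 against 4 arrays can give. Before any scaling between arrays the deposited signal of this probe ran from 270 to 346 in Bgn_KO and from 277 to 333 in WT, so the groups overlapped there. It was the dimmest of the 12 tested probes, and the median deposited signal of an array was 180 to 225. Under median scaling the groups also met, at 7.27 (difference 0.27, exact permutation p = 0.0571). Without background correction the difference was 0.171 (limma adjusted p = 0.341), and that of Aldoc was -0.175, slightly larger in size. Leaving out WT replicate 1 gave 0.29, and leaving out both replicates 4 gave 0.37 (limma adjusted p = 0.298 and 0.410). The RefSeq annotation also lists pseudogene copies of Pgk1, and whether this probe tells them from the gene was not known here.

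Aldoc, the aldolase of astrocytes, was the other gene whose groups were apart, in the opposite direction. Its probe was at 14.18, 14.14, 14.18 and 14.25 on the Bgn_KO arrays (14.19 ± 0.04, SD, n = 4). The WT arrays were at 14.30, 14.28, 14.47 and 14.41 (14.37 ± 0.09, SD, n = 4). The WT arrays all lay above the Bgn_KO arrays, by as little as 0.03 between the nearest. The log2 difference was -0.18 (SE 0.08), or 0.885-fold with a 95% confidence interval from 0.779 to 1.01, and it did not pass (limma adjusted p = 0.515; exact permutation p = 0.0286). The groups stayed apart with median scaling, without background correction and in the authors' processed values. They overlapped before scaling, where the deposited values were 15800 to 20687 for Bgn_KO and 19646 to 24186 for WT. Leaving out WT replicate 1 gave -0.20, and leaving out both replicates 4 gave -0.18 again.

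Marker lists of glia also had lower means in Bgn_KO. The same held for the endothelial, erythrocyte, meningeal fibroblast, hypothalamic and choroid plexus lists. It held too for the skeletal muscle list, which was high on WT replicate 4. Only the lists of neurons and cortical neurons had higher means in Bgn_KO. The mean of 8 astrocyte markers lay between 10.12 and 10.25 on the Bgn_KO arrays and between 10.22 and 10.33 on the WT arrays. Of these 8 markers, all above background on every array, 3 were higher and 5 lower in Bgn_KO, and 0 passed (limma). The mean of 7 oligodendrocyte markers, all 7 of which were lower, was 11.94 to 12.15 on Bgn_KO and 12.22 to 12.65 on WT arrays. That of 6 microglial markers, 1 higher and 5 lower, was 7.48 to 7.85 and 7.85 to 7.90. The part of these lists in the Aldoc value was not tested. In bulk tissue fewer cells of a type and less RNA per cell cannot be told apart.

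The promoters of Pgk1 and Aldoc are shown because these are the 2 genes whose groups did not overlap. Many glycolytic genes are also known targets of the hypoxia-inducible factor HIF-1, and ACGTG is a form of its core site. Other forms were not searched. The sequences are RefSeq's, build GRCm38.p6, from 250 bases before to 50 after a transcription start, 5′ to 3′ on the + strand, and the capitals mark ACGTG or its reverse complement CACGT. The Pgk1 window is chrX:106186850-106187149 and the Aldoc window, the upstream of its listed starts, is chr11:78322823-78323122.
Pgk1: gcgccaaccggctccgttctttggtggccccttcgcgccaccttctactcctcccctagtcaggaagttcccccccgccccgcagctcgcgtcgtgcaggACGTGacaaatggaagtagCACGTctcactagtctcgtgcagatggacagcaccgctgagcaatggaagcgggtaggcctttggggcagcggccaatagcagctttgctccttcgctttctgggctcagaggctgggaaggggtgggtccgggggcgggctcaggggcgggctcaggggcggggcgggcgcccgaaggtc
Aldoc: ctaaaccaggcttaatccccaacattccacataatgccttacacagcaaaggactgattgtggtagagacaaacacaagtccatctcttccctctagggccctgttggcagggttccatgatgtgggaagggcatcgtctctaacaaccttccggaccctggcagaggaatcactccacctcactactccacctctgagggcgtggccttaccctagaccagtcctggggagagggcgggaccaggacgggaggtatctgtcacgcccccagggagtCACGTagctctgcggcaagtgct
The motif occurs at 2 places in the Pgk1 window and at 1 in the Aldoc window. Of the windows listed for these 2 genes only those that held the motif are shown, so this match was fixed by the choice. The other Aldoc window, chr11:78323948-78324247, held it at 0 places. Promoters were listed for 9 of the 10 genes (not for Slc2a3), and for 7 of these 9 at least 1 window held the motif on either strand, where 21.8% of all genes in the table did. By window it was 9 of 17, against 19.6% of all 32851 windows. The table holds 27025 genes, so these 9 genes had more windows each, and the shares by gene are not like for like. Windows of a gene can also overlap, as chr7:126799129-126799428 and chr7:126799205-126799504 of Aldoa do, and both of these held the motif. A match is a description of the letters, and the arrays measured no binding.

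**Figure D2:**
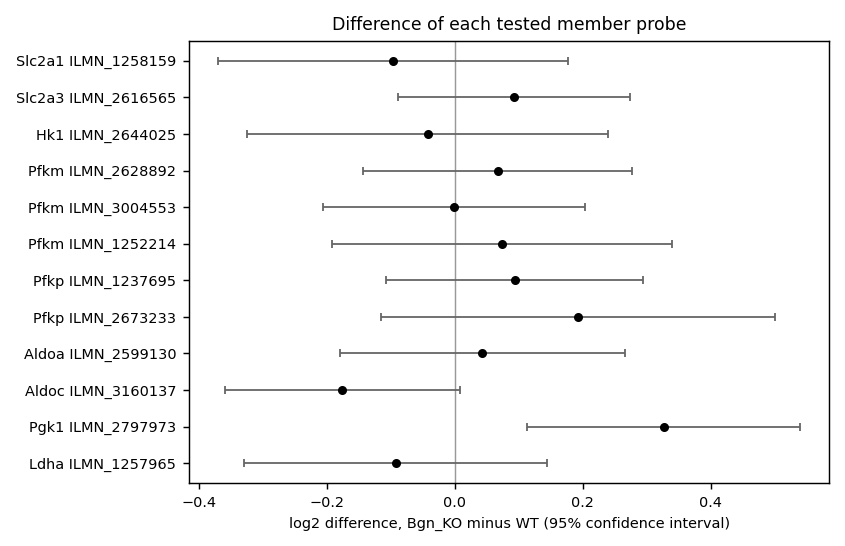
Log2 difference, Bgn_KO minus WT (x axis), of each tested probe (y axis), with its 95% confidence interval from the limma fit over 4 and 4 arrays. The interval of Pgk1 lies above 0 (0.11 to 0.54), that of Aldoc reaches from -0.36 to 0.01, and the others span 0.

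Of the transporters, Slc2a1 (GLUT1) was at 11.69, 11.67, 11.74 and 12.13 on the Bgn_KO arrays (11.81 ± 0.22, SD, n = 4). The WT arrays were at 11.75, 11.97, 11.91 and 11.99 (11.91 ± 0.11, SD, n = 4). Of the Bgn_KO arrays 3 lay below all WT arrays, and Bgn_KO replicate 4 lay above them. The log2 difference was -0.10 (SE 0.12, limma adjusted p = 0.839), and without Bgn_KO replicate 4 it was -0.20 (limma adjusted p = 0.470). With another Bgn_KO array left out it was as small as -0.05 (without replicate 2) and -0.06 (without replicate 1). Bgn_KO replicate 4 had the highest mean among the Bgn_KO arrays for 9 of the 11 marker lists, the endothelial and erythrocyte lists among them. The mean of the 5 endothelial markers above background ran from 9.18 to 9.44 on Bgn_KO and from 9.28 to 9.49 on WT arrays, with 1 higher and 4 lower. The 3 erythrocyte genes, all lower, averaged 8.37 to 9.09 and 8.81 to 9.24. Their part in the Slc2a1 value was not tested.

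**Figure D3:**
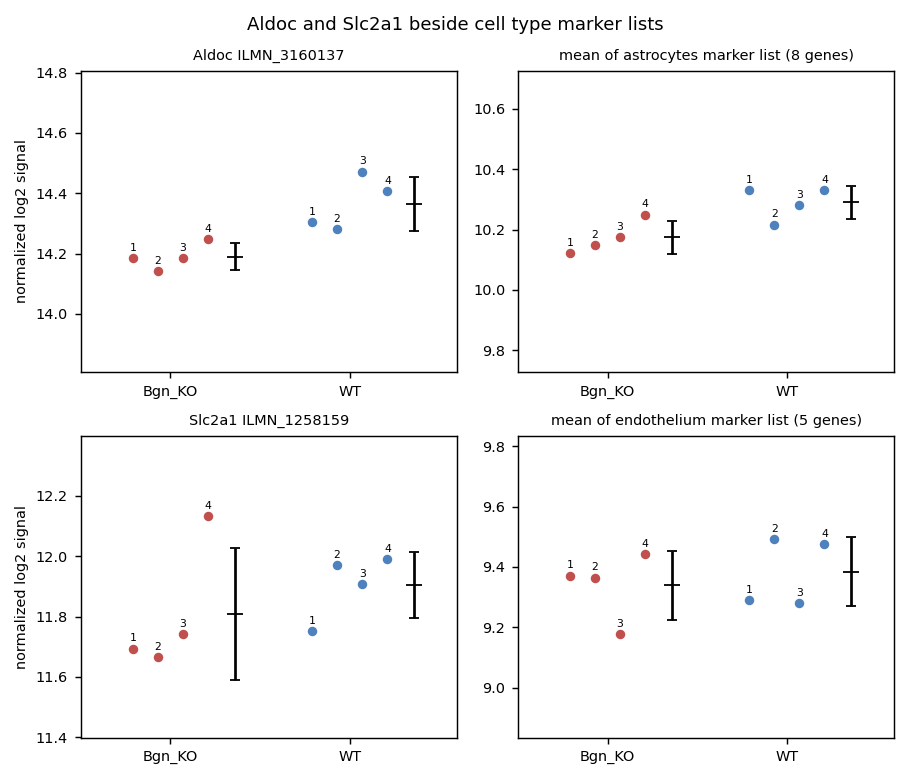
Normalized log2 signal (y axis) of Aldoc and Slc2a1 on the left and the mean of the astrocyte and endothelial marker lists on the right, by array, with Bgn_KO in red, WT in blue, replicate numbers beside the points and the mean with its SD (n = 4) as a black bar. The astrocyte list overlaps only between Bgn_KO replicate 4 (10.25) and WT replicate 2 (10.22), and for Slc2a1 Bgn_KO replicate 4 sits at 12.13.

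Slc2a3 (GLUT3), the transporter of neurons, varied less. It was at 11.92, 11.88, 11.83 and 11.98 on the Bgn_KO arrays and at 11.87, 11.72, 11.79 and 11.86 on the WT arrays, and the groups overlapped. Its log2 difference was 0.09 (SE 0.08, limma adjusted p = 0.748), and 0.018 under median scaling. The mean of 6 neuronal markers, 4 higher and 2 lower, was 11.39 to 11.79 on Bgn_KO and 11.44 to 11.52 on WT arrays, so those ranges overlapped too. The ends of that Bgn_KO range were replicates 1 and 2, where the dim marker Tubb3 was lowest (4.73) and highest (6.52). Tubb3 was above background on 7 of the 8 arrays, and the mean without it was not calculated. Rbfox3 (difference 0.40, limma adjusted p = 0.313) and Eno2 were the markers with groups apart, both higher in Bgn_KO. Tubb3 and Rbfox3 were chosen after their values were seen.

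Hk1, the main hexokinase of brain, was at 9.20, 9.16, 9.29 and 9.18 on the Bgn_KO arrays. The WT arrays were at 9.40, 8.88, 9.29 and 9.42. The WT arrays spanned the whole range of the Bgn_KO arrays (SD 0.25 against 0.06, n = 4 each). The log2 difference was -0.04 (SE 0.13, limma adjusted p = 0.942), with a 95% confidence interval from -0.33 to 0.24.

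Phosphofructokinase, the step at which glycolysis is regulated, was covered by 3 probes each for Pfkm and Pfkp, which share their target gene and are not replicates. The Pfkm probe with the highest signal (ILMN_2628892) was at 13.68, 13.64, 13.70 and 13.71 on the Bgn_KO arrays and at 13.45, 13.65, 13.56 and 13.79 on the WT arrays. Both the lowest and the highest of the 8 values belonged to WT arrays. Its log2 difference was 0.07 (SE 0.09), and the other Pfkm probes differed by -0.0012 (SE 0.09) and 0.07 (SE 0.12), with limma adjusted p between 0.859 and 0.998. For Pfkp, the platelet form that is also abundant in brain, the probe ILMN_1237695 was at 11.29, 11.28, 11.25 and 11.27 on the Bgn_KO arrays. It was at 11.23, 11.34, 11.08 and 11.06 on the WT arrays. The Bgn_KO arrays were close to each other (SD 0.02), and the WT arrays lay on both sides of them (SD 0.13, n = 4 each). The difference was 0.09 (SE 0.09) here and 0.19 (SE 0.14) for ILMN_2673233 (limma adjusted p = 0.774 and 0.675). Leaving out single arrays gave 0.06 to 0.15 for the first and 0.10 to 0.27 for the second, the lower values without WT replicates 4 and 2 and the higher without WT replicate 2 and Bgn_KO replicate 3. The third Pfkp probe, ILMN_2807702, was above background on 0 Bgn_KO and 3 WT arrays and was not tested. Its deposited signal, 158 to 193 on Bgn_KO and 183 to 211 on WT arrays, was near that of background.

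Aldoa, the most widely used aldolase, was at 13.31, 13.47, 13.43 and 13.51 on the Bgn_KO arrays and at 13.41, 13.41, 13.19 and 13.54 on the WT arrays. The groups overlapped, and the difference was 0.04 (SE 0.10, limma adjusted p = 0.922). For Ldha, the subunit that favours the making of lactate, the Bgn_KO arrays were at 12.87, 12.69, 13.09 and 13.01. The WT arrays were at 13.07, 12.89, 13.00 and 13.08, within the spread of the Bgn_KO arrays. The log2 difference was -0.09 (SE 0.11, limma adjusted p = 0.821), and it ran from -0.02 without Bgn_KO replicate 2 to -0.15 without Bgn_KO replicate 3.

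A list of 60 other genes of glucose, lactate, pyruvate, glycogen and pentose phosphate handling was read through the brightest probe of each gene. Probes were found for 51 of them, and 38 genes were tested. Of these 18 were higher and 20 lower in Bgn_KO, with a median log2 difference of -0.01, and 0 passed over all tested probes in either direction (limma), beside the 0.507% of all probes. An unadjusted p under 0.05 was reached by 4 of the 38 and groups that did not overlap by 3, beside 10.2% and 6.15%.

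The 3 genes with groups apart were higher in Bgn_KO. Pfkl, the liver form of phosphofructokinase, ran from 12.06 to 12.17 in Bgn_KO and from 11.78 to 12.01 in WT. Its log2 difference was 0.28 (SE 0.09, limma adjusted p = 0.299). The other Pfkl probe, ILMN_2871325, differed by 0.15 (SE 0.13, limma adjusted p = 0.764), with overlapping groups (6.41 to 6.78 and 6.17 to 6.66). Gpd2, the mitochondrial enzyme of the glycerol phosphate shuttle, which passes electrons from cytosolic NADH to the respiratory chain, was 10.52 to 10.73 and 10.11 to 10.45. It differed by 0.31 (SE 0.10, limma adjusted p = 0.2997), and by 0.21 without both replicates 4. Its other probe, ILMN_1215797, differed by 0.36, with overlapping groups (6.31 to 6.62 and 5.81 to 6.45). Eno2, the neuronal enolase and also a member of the neuronal marker list, was 14.18 to 14.25 and 13.94 to 14.15, with a difference of 0.17 (SE 0.08, limma adjusted p = 0.527). Under median scaling the groups of Eno2 overlapped (difference 0.10, exact permutation p = 0.257), while those of Pfkl and Gpd2 did not.

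Among the other genes with the smallest p-values, the hexokinase Hk3, which is typical of blood cells, differed by 0.49 (SE 0.16) and Ldhd, a D-lactate dehydrogenase, by -0.18 (SE 0.10), with limma adjusted p of 0.332 and 0.592. Without background correction the value of Hk3 was 0.14. The insulin-responsive transporter Slc2a4 (GLUT4), above background on 1 Bgn_KO and 3 WT arrays, differed by -0.67 (SE 0.24, limma adjusted p = 0.392), and by -0.18 without background correction. The hexokinase Hk2 differed by -0.36 (SE 0.19) and the muscle glycogen phosphorylase Pygm by -0.51 (SE 0.27), both prominent in muscle, with limma adjusted p of 0.562 and 0.568. Without background correction Pygm differed by -0.28 and Ldhd by -0.11. The central enzymes Gapdh and Tpi1 differed by 0.01 and 0.0029 (SE 0.08 each), with 95% confidence intervals from -0.16 to 0.19 and from -0.17 to 0.18. Gapdh and Tpi1 were chosen after their values were seen, as were the genes named in the next sentences up to the plots. Pkm, the pyruvate kinase of brain and muscle, differed by 0.22 (SE 0.14). It was highest on Bgn_KO replicate 4 (13.87) and lowest on WT replicate 4 (13.14), and its difference without these arrays was not calculated. Isoforms typical of other organs were not above background on any array: Pgk2, Ldhc and Gapdhs of the testis, and Pklr and Slc2a2 of the liver. The probes of the lactate carriers Slc16a1 and Slc16a7 were also above background on 0 arrays. The same was true of Snap25 and Nefl on the neuronal marker list. A probe at background here therefore does not show that its transcript is absent. Altogether 12 of the 51 genes were above background on no array.

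**Figure D4:**
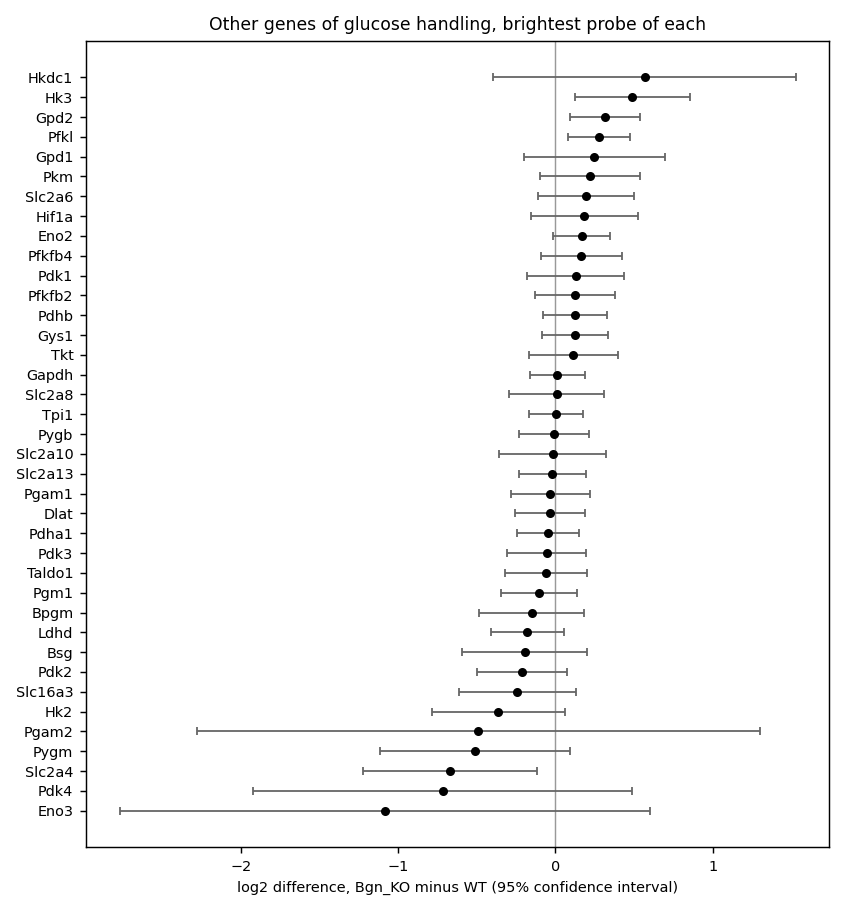
Log2 difference, Bgn_KO minus WT (x axis), of the 38 tested genes of glucose handling outside the 10 (y axis, in order of the difference), each by its probe with the highest signal, with 95% confidence intervals from the limma fit over 4 and 4 arrays. The widest intervals belong to Eno3, Pgam2 and Pdk4, which were high on WT replicate 4.

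Muscle forms of these enzymes stood out on WT replicate 4. Of 10 skeletal muscle markers all 10 were above background on that array and highest there, and 6 of them were above background on no other array. The mean of the 4 markers that passed the filter was 12.62 there, 6.08 to 6.62 on the other WT arrays and 6.07 to 6.86 on the Bgn_KO arrays. Eno3, the muscle beta-enolase, was at 11.23 on WT replicate 4 and between 7.23 and 7.83 on the other arrays. Pgam2, the muscle phosphoglycerate mutase, was at 10.27 against 6.09 to 7.46. Pdk4, a kinase that restrains pyruvate dehydrogenase when fat is burned, was at 10.45 against 7.57 to 8.47. These 3 genes were chosen after their values were seen. Pygm (8.41 against 6.797 to 7.48), Hk2 (9.44 against 8.32 to 8.77) and Slc2a4 (6.58 against 5.01 to 5.91) were also highest there.

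Without WT replicate 4 the log2 difference, Bgn_KO minus WT, moved from -1.08 to -0.17 for Eno3, from -0.51 to -0.22 for Pygm, from -0.36 to -0.16 for Hk2 and from -0.72 to -0.10 for Pdk4. That of Pgam2 went from -0.49 to 0.44. Slc2a4 no longer met the filter. Of the 10 genes described first, Aldoa, Hk1 and 2 Pfkm probes were highest on WT replicate 4. They exceeded the median of the other arrays there by 0.13 for Aldoa, 0.22 for Hk1 and 0.14 and 0.22 for Pfkm, against 3.76 for Eno3. Without this array the difference of Hk1 was 0.015, and 0 of the 12 probes passed (limma). The Aldoc and Pgk1 differences without it were -0.16 and 0.35.

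**Figure D5:**
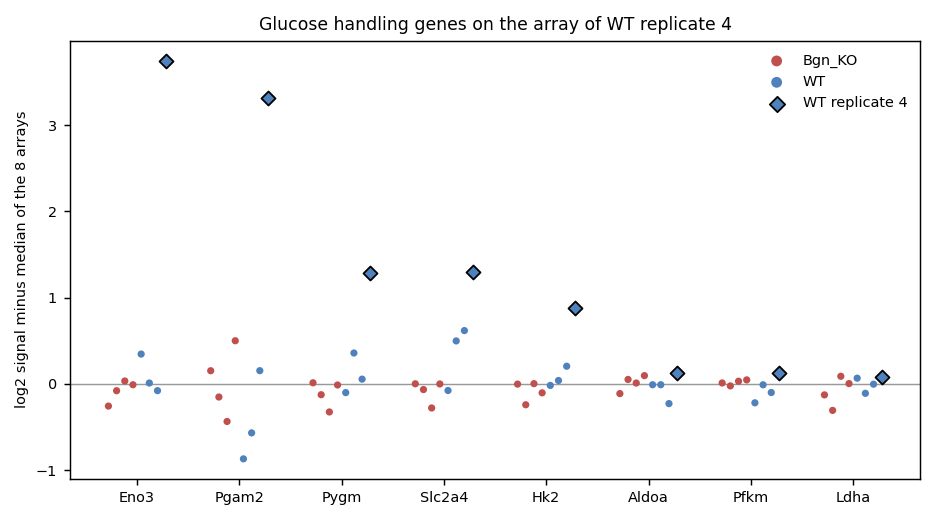
Log2 signal of 8 genes on each array minus the median of the 8 arrays (y axis), by gene (x axis, 1 probe per gene), with Bgn_KO in red, WT in blue and WT replicate 4 as a diamond. Eno3 and Pgam2 lie over 3 above their median on WT replicate 4, and Aldoa, Pfkm and Ldha lie near 0 on all arrays. Slc2a4 was above background on 4 of the 8 arrays.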

How the data were processed

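Per the file headers, the authors deposited raw bead signal intensities before normalization, and detection p-values per probe and array. The authors' processed intensities came from lumi 2.10.0 and R 2.15.0, as the submitters' processing notes name them, with no normalization stated. Letters in the descriptions tied each column to its sample. Background was modelled from detection p-values by normexp (limma 3.58.1, R 4.3.3; offset 16), followed by quantile normalization and log2. Probes having a detection p under 0.05 on at least 4 of 8 arrays were tested (14190). Genes come from the platform table (23978 probes with 1 symbol, 0 with several, 1719 unlisted), updated through Entrez ID. Moderated linear models gave the differences, with Benjamini-Hochberg adjustment over all tested probes and exact permutation tests over 70 splits. The analysis was tested on simulated data. Precision is limited by the number of arrays. The members and gene lists were chosen with earlier results of these data known.

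Named genes are the 10 genes with every probe and the 8 list genes with the smallest p; others are marked as chosen after their values were seen. Alternatives were median scaling, no background correction, the authors' values, 2 other filters, array weights, the replicate number as a block, and arrays left out. Same-numbered arrays of the groups had correlations of -0.19 to 0.10 in their deviations, so the numbers were not taken to pair samples. Meningeal fibroblast and choroid plexus markers, not used further, had array means of 7.93 to 9.12 and 7.66 to 8.60 on Bgn_KO and 8.05 to 9.46 and 8.54 to 9.08 on WT arrays. The 9 hypothalamic markers had means of 11.94 to 12.39 and 12.25 to 12.38.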

Additional observations from a re-analysis of the deposited data

Results flagged for a closer look

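In 48 groups of 4 arrays, the highest or lowest array was compared with its neighbour relative to the range of the group. By a limit set at 1 in 20, 3 stood apart. The groups were those of the 12 probes, the 8 list genes with the smallest p, Bgn, Eno3, Pgam2 and Pdk4. Some of these were picked by their values in these data, so the count cannot be set against that rate. Slc2a1 on Bgn_KO replicate 4 was 12.13, with the other Bgn_KO arrays between 11.67 and 11.74. Pfkl on WT replicate 2 was 12.01, with the other WT arrays between 11.78 and 11.79, and without that array its log2 difference was 0.33 in place of 0.28. Eno3 on WT replicate 4 was 11.23, with the other WT arrays between 7.41 and 7.83.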

How the results depend on the processing

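Under the 16 alternatives 0 of the 12 probes and 0 of the genes on the list of 60 passed (limma), and the lowest adjusted p of any of the 12 probes was 0.180, for Pgk1 with array weights. Of 192 values of the 12 probes 178 kept their direction and 14 reversed, all of probes close to 0. Median scaling moved the median of all tested probes from 0.01 to -0.05. Under it the median of the 12 probes was -0.016, and Pfkm was at -0.00046 (ILMN_2628892) and -0.0087 (ILMN_1252214) and Aldoa at -0.024. In the authors' processed values Pfkm ILMN_3004553 was at 0.0011. Without both replicates 4 Hk1 was at 0.025 and Pgam2 at 0.28. With each array left out in turn, and background and normalization redone, Pfkm ILMN_3004553 ranged from -0.051 to 0.032, Pfkm ILMN_1252214 from -0.0091 to 0.16, Hk1 from -0.17 to 0.015, Aldoa from -0.022 to 0.094 and Pgam2 from -0.95 to 0.44. All tested probes past 0.05, 72 in the analysis reported, were 42 to 69 with an array left out (42 without WT replicate 3 or 4, 44 without Bgn_KO replicate 2 or 3), 47 with a detection p under 0.01 on all arrays, 116 with array weights, 35 without both replicates 4 and 26 with the replicate block. With the replicate block the adjusted p of Pgk1 was 0.428 and that of Aldoc 0.583 (limma). The Bgn difference, -0.81 (limma adjusted p = 0.390), ranged from -1.11 without the array labelled WT replicate 1 to -0.58. The cause of these shifts was not tested. Without background correction dim probes had smaller differences (Pgk1 0.17, Hk3 0.14, Slc2a4 -0.18, Pygm -0.28 and Ldhd -0.11).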

Other observations

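The pyruvate dehydrogenase complex links glycolysis to the citric acid cycle. Its subunits Pdha1, Pdhb and Dlat had log2 differences, Bgn_KO minus WT, of -0.05 (SE 0.09), 0.12 (SE 0.09) and -0.03 (SE 0.10), each by its brightest probe, and its kinases Pdk1, Pdk2 and Pdk3 of 0.13 (SE 0.14), -0.21 (SE 0.13) and -0.06 (SE 0.11). None of these 6 passed (limma adjusted p of 0.602 to 0.941). A second Pdhb probe, ILMN_3116570, had a difference of -0.22 (SE 0.13), opposite in sign to the first. The fourth kinase, Pdk4, differed by -0.72 (SE 0.53) and was high on WT replicate 4. These genes were chosen after their values were seen.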
